A study of Mus musculus with 8 samples.

Results

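The genes of the major histocompatibility complex (MHC), named H2 in the mouse, and the machinery that loads peptides onto their products were examined in IL-6-treated macrophages of mice with a floxed IL-6 receptor alpha gene, with and without a myeloid Cre. Members were all genes whose probe set carries a single symbol beginning with H2-, together with 11 named loading and regulatory genes (B2m, Cd74, Ciita, Nlrc5, Tap1, Tap2, Tapbp, Tapbpl, Erap1, Ifi30 and Rfx5). This gave 40 of the 19938 genes measured. They comprised 20 class I heavy chains, 6 class I loading genes, 8 class II chains, 2 class II loading genes, 3 transcriptional regulators and H2-Ke6, which bears the prefix but encodes no MHC chain. All 40 were measured, and no filter on low values was applied.

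Bone marrow of mice was cultured for 10 days in M-CSF at 10 ng/ml to give macrophages, which were starved of serum overnight and then received murine IL-6 at 50 ng/ml for the last 4 h. The control group, Ctrl, came from IL6ralpha flox/flox mice, and the Cre-bearing group, IL6raKO, from IL6ralpha flox/flox LysMCre tg/wt mice, in which the Cre recombinase is expressed from the lysozyme locus of myeloid cells. Each group had 4 arrays that the labels call biological replicates. All 8 came from IL-6-treated cells, so a difference between genotypes cannot be told apart from one present before IL-6, and only IL6raKO carried Cre. The labels do not say that each replicate was a separate animal, so the spread behind the p-values is that of these samples and may be technical. They also give neither strain nor H2 haplotype, and H2 alleles differ in sequence between strains.

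Expression is given as the log2 value of a gene's probe set, and a difference is IL6raKO minus Ctrl on that scale. Il6ra, the targeted gene, lay between 8.40 and 8.45 in Ctrl and between 7.75 and 8.10 in IL6raKO, without overlap. Its difference of -0.50 (SE 0.07) had a limma adjusted p of 0.0607, so it missed the threshold of 0.05 used for the members, and its level in IL6raKO was still above that of most genes. No source used here says whether its probe set lies in the floxed part. The 9 measured macrophage markers of a fixed list were all brighter than the median gene, and their mean was 11.40 to 11.53 in Ctrl and 11.43 to 11.48 in IL6raKO. Ctrl replicate 4 stood apart on the first principal component over all genes, at 21.5 where the other 7 arrays lay between -6.6 and 4.8. Over all genes, limma called 6 of 19938 at an adjusted p under 0.05 (0.0301%), all 6 lower in IL6raKO. The number of arrays limits the precision.

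Class I molecules consist of a heavy chain and beta-2 microglobulin and present peptides, trimmed by Erap1 and carried into the endoplasmic reticulum by Tap1 and Tap2, to CD8 T cells. Class II molecules are pairs of alpha and beta chains that assemble with the invariant chain Cd74 and exchange its fragment for a peptide in endosomes with the help of H2-DM, for display to CD4 T cells. Nlrc5 is the transactivator of class I genes and Ciita that of class II genes. Both work through proteins, Rfx5 among them, that bind the X and Y boxes of the promoters.

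The X and Y boxes could be seen in the class II promoters themselves. RefSeq promoter sequences (GRCm38.p6, 250 bases before to 50 after the start) were matched for 28 of the 40 members, but not for Cd74, Ciita, H2-Ab1, H2-Bl, H2-Ea, H2-K2, H2-Q5, H2-T10, H2-T24, Nlrc5, Tap2 and Tapbpl. The search asked for GCAAC, a core of the X box, and TGATTGG, the Y box, on the same strand with their first bases 25 to 35 bases apart, on either strand of the promoter. H2-Aa and H2-Eb1 are shown because each had a positive correlation with Cd74, given below. H2-Ob is shown because it holds the same pair while its correlation with Cd74 over the 8 arrays was negative. That correlation was -0.34, and -0.01 once each group was centred on its own mean. H2-Eb2 and H2-Oa, not shown, also hold the pair, with correlations of 0.48 and -0.69. Whether the pair goes with the correlation was not tested. Each sequence runs 5′ to 3′ along the gene's strand, with the X box core and the Y box in capitals.
H2-Aa, chr17:34287774-34288073, minus strand: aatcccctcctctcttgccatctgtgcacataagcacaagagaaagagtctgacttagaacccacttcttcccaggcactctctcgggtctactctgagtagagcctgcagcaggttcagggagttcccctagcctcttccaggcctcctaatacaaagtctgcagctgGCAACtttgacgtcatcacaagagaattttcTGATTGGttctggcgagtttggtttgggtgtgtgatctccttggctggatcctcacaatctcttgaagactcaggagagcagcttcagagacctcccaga
H2-Eb1, chr17:34305617-34305916, plus strand: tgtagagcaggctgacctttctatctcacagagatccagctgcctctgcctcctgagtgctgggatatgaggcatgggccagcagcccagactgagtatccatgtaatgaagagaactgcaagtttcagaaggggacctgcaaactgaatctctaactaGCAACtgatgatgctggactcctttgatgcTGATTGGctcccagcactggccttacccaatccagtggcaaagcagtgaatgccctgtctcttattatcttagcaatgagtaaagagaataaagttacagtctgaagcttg
H2-Ob, chr17:34238655-34238954, plus strand: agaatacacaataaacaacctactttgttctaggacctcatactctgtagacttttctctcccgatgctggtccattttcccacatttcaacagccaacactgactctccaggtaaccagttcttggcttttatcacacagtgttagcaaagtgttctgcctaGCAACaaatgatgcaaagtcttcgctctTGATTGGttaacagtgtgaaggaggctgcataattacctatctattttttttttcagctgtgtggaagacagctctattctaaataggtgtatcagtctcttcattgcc
The first bases of the boxes are 31 bases apart in H2-Aa, 30 in H2-Eb1 and 28 in H2-Ob. The pair was found in 5 of the 6 matched class II chains (H2-Aa, H2-Eb1, H2-Eb2, H2-Oa and H2-Ob) and in 0 of the 15 matched class I heavy chains, beside 0.103% of all 32851 promoters in the table. Single boxes are commoner: GCAAC on either strand was in 35.2% of all promoters and TGATTGG in 7.82%. Of the 15 class I heavy chains matched to a promoter, 9 had TGATTGG, in each case without GCAAC at that distance. The motifs and their distance were set after these sequences had been read, and a match is a description of letters only.

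No member passed the test between genotypes. In limma with Benjamini-Hochberg adjustment over all genes, 0 of 40 members had an adjusted p under 0.05, where 0.0301% of all genes did, and the lowest adjusted p was 0.528, for H2-Q2. At an unadjusted p under 0.05, 4 members were lower (4.54% of all genes were) and 0 were higher (2.74% of all genes were). The median difference was -0.00 over the 40 members and -0.01 over all genes, with 21 members lower (54.2% of all genes were) and 19 higher. For 39 of 40 members the 95% confidence intervals lay within a 1.5-fold change in either direction, the exception being H2-M10.4 on the lower side. Intervals reaching that far were rare on these arrays: of all 19938 genes, 85 reached 1.5-fold higher and 127 reached 1.5-fold lower. The intervals are on the array scale, and RMA compresses differences of dim probe sets. Class I and class II had small medians of opposite sign. They were -0.04 for the 26 class I genes (15 lower, 11 higher) and 0.04 for the 10 class II genes (4 lower, 6 higher). Among genes above the median level both medians were above 0, at 0.03 for 10 class I genes and 0.10 for 6 class II genes. The class II median turned to -0.0021 without Ctrl replicate 3 and to -0.01 without IL6raKO replicate 4. It was 0.07 without Ctrl replicate 4, where the class I median was -0.04.

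**Figure D1:**
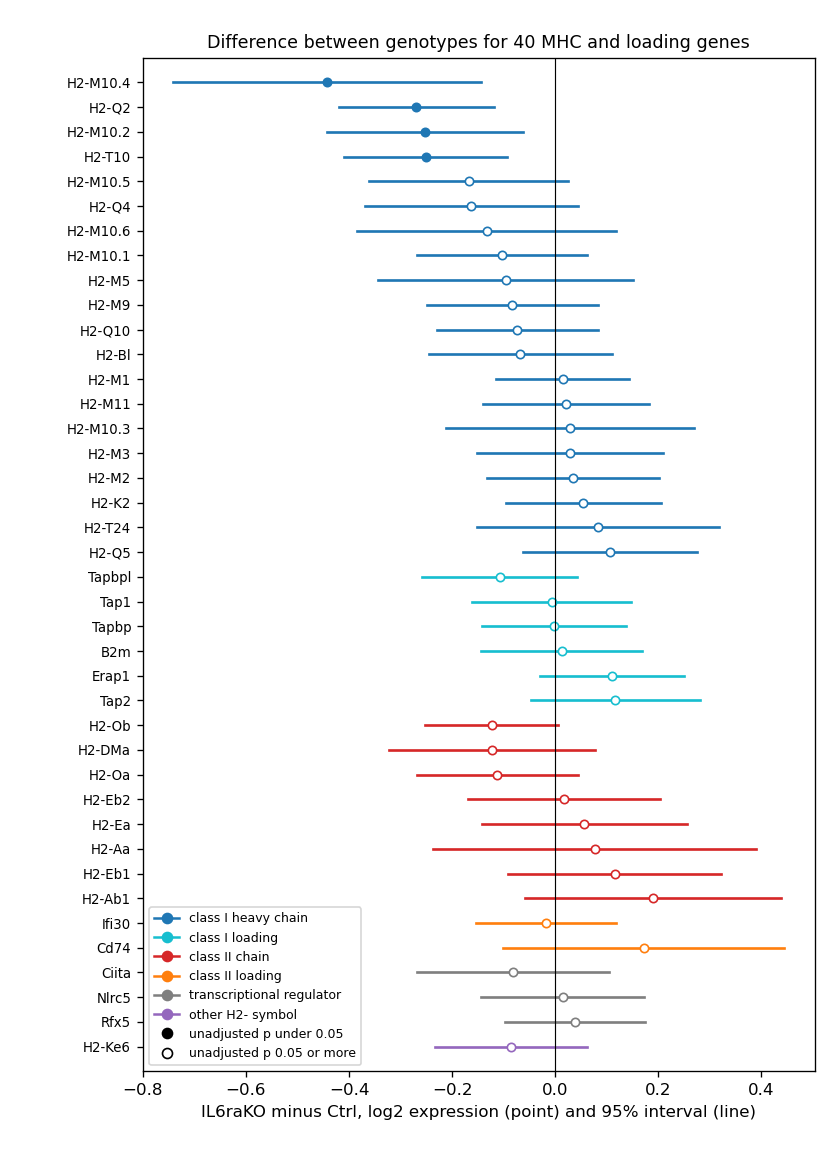
Differences between genotypes for the 40 members, on the log2 scale, as points with 95% confidence intervals from limma and coloured by subgroup. The 4 filled points, all class I heavy chains below 0, have an unadjusted p under 0.05, and every class II interval includes 0.

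Class II was examined first through its classical chains, H2-Aa and H2-Ab1, the alpha and beta chains of I-A, and H2-Eb1, the beta chain of I-E. H2-Aa was at 9.38, 9.57, 9.14 and 9.70 in Ctrl replicates 1 to 4 and at 9.19, 9.42, 9.68 and 9.80 in IL6raKO replicates 1 to 4. H2-Ab1 was at 9.83, 9.70, 9.50 and 9.87 in Ctrl and at 9.62, 9.88, 10.08 and 10.08 in IL6raKO. In both genes Ctrl replicate 3 and IL6raKO replicate 1 were the lowest arrays of their groups, and the groups overlapped. The difference was 0.08 (SE 0.14, 95% confidence interval -0.24 to 0.39, limma adjusted p = 0.935) for H2-Aa and 0.19 (SE 0.11, 95% confidence interval -0.06 to 0.44, limma adjusted p = 0.736) for H2-Ab1. The H2-Aa difference changed sign without Ctrl replicate 3 (-0.0268) and without IL6raKO replicate 4 (-0.0158), and it was 0.19 without IL6raKO replicate 1. H2-Eb1 was at 7.74, 7.56, 7.47 and 7.82 in Ctrl and at 7.68, 7.63, 7.94 and 7.81 in IL6raKO, a difference of 0.12 (SE 0.09, limma adjusted p = 0.805) that fell to 0.05 without Ctrl replicate 3 and to 0.06 without IL6raKO replicate 3. Again the groups overlapped, with the lowest value in Ctrl replicate 3 and the highest in IL6raKO replicate 3.

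Cd74, the invariant chain that occupies the class II groove during assembly, was at 8.99, 9.02, 8.77 and 9.23 in Ctrl and at 8.86, 9.10, 9.34 and 9.39 in IL6raKO. IL6raKO replicates 3 and 4 were above every Ctrl array and IL6raKO replicate 1 was below 3 of them. The difference was 0.17 (SE 0.12, 95% confidence interval -0.10 to 0.45, limma adjusted p = 0.787). Single arrays moved it in both directions. It was 0.09 without Ctrl replicate 3, 0.10 without IL6raKO replicate 4 and 0.28 without IL6raKO replicate 1, and for H2-Ab1 the same 3 omissions gave 0.11, 0.13 and 0.29. Without IL6raKO replicate 1 the unadjusted p were 0.0314 for Cd74 and 0.0152 for H2-Ab1 and the adjusted p 0.761 and 0.737 in limma, while with any 1 array left out the adjusted p of both genes stayed above 0.6. Ifi30, the lysosomal thiol reductase that opens disulfide bonds of antigens, was steadier, at 11.08, 10.997, 11.08 and 11.14 in Ctrl and at 11.05, 10.99, 11.15 and 11.03 in IL6raKO (difference -0.02, SE 0.06).

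The other class II chains act in loading or were dim on these arrays. H2-DMa, a chain of the peptide exchange factor H2-DM, was at 7.45, 7.55, 7.56 and 7.89 in Ctrl and at 7.40, 7.48, 7.57 and 7.52 in IL6raKO, with Ctrl replicate 4 highest and a difference of -0.12 (SE 0.09, limma adjusted p = 0.788). Without that array, which stood apart over all genes, the difference was -0.03. H2-Ob, the beta chain of H2-DO, which restrains H2-DM, was at 5.65, 5.73, 5.62 and 5.65 in Ctrl and at 5.59, 5.48, 5.58 and 5.51 in IL6raKO. It was the 1 class II gene with every IL6raKO array below every Ctrl array, as were 2.37% of all genes. Its difference of -0.12 (SE 0.06) had an unadjusted p of 0.06 and a limma adjusted p of 0.701. Its partner H2-Oa was at 5.21, 5.30, 5.32 and 5.08 in Ctrl and at 5.14, 5.13, 5.18 and 5.02 in IL6raKO, with overlap between the groups and a difference of -0.11 (SE 0.07). H2-Eb2 differed by 0.02 and H2-Ea by 0.06, each with overlapping groups. Both lay below the median level of all genes, as did H2-Oa and H2-Ob.

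**Figure D2:**
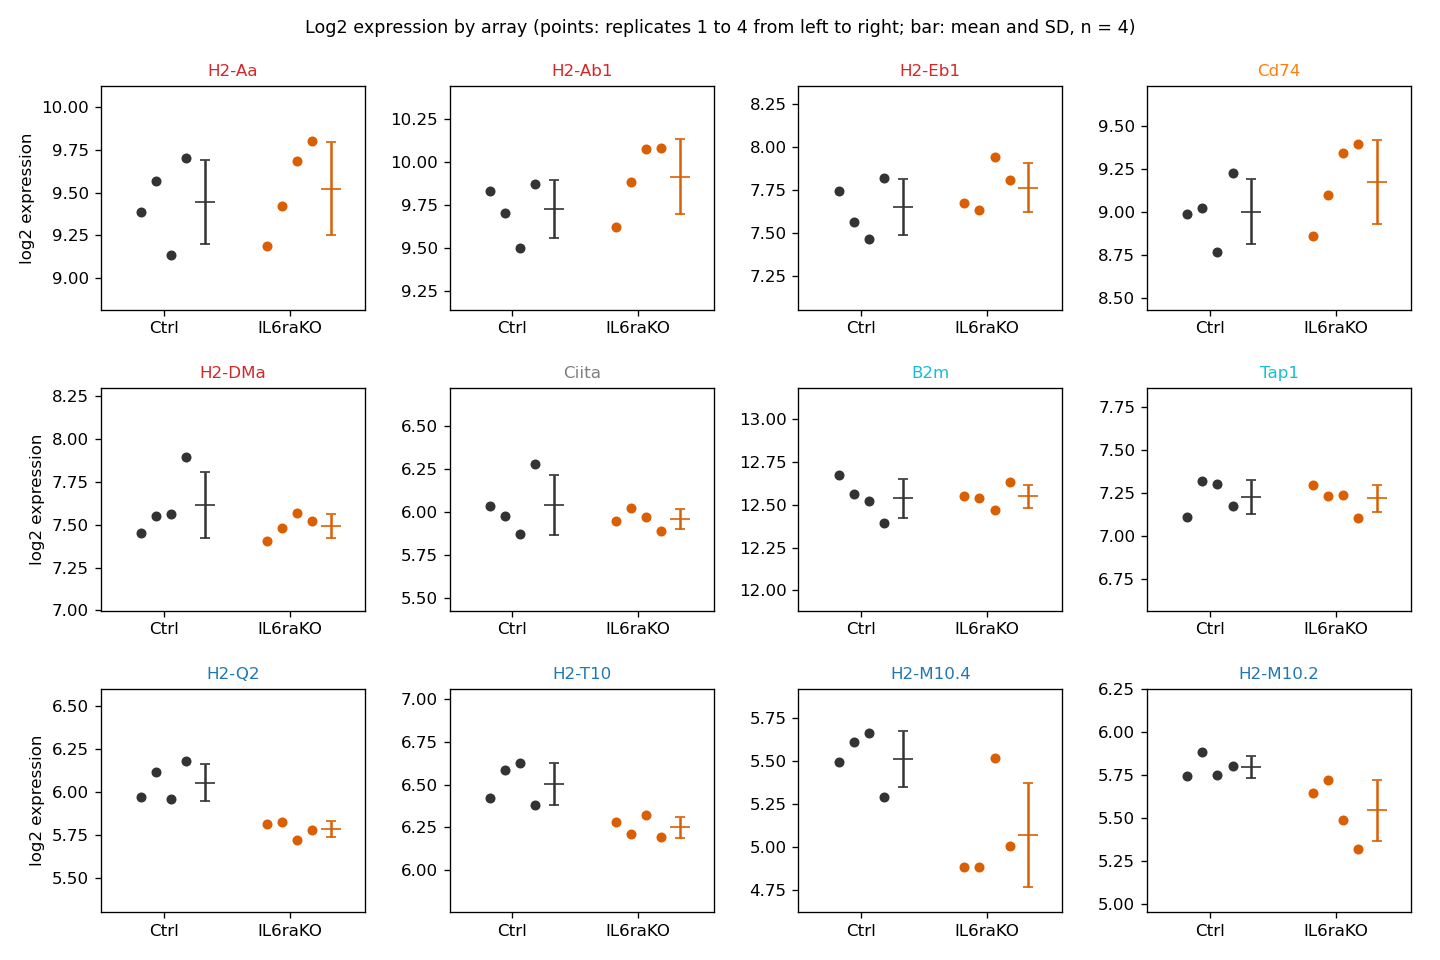
Log2 expression of 12 members in each array, with the mean and SD (n = 4) of each group beside the points. All panels have the same span on the vertical axis, and the groups overlap for every gene shown except H2-Q2, H2-T10 and H2-M10.2.

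H2-Aa, H2-Ab1 and Cd74 were all low in Ctrl replicate 3 and IL6raKO replicate 1. Each was above its mean in Ctrl replicate 4 and in IL6raKO replicates 3 and 4. Relative to their means over the 8 arrays, the average of H2-Aa, H2-Ab1, H2-Eb1 and Cd74 was -0.31 in Ctrl replicate 3 and -0.19 in IL6raKO replicate 1, 0.13 in Ctrl replicate 4, and 0.24 and 0.25 in IL6raKO replicates 3 and 4. The other 3 arrays lay between -0.06 and -0.02, and there single genes differed in sign (in Ctrl replicate 2, H2-Aa 0.08 and H2-Ab1 -0.12). From the lowest to the highest array the average spanned a 1.47-fold range, and each genotype supplied arrays at both ends. Over the 8 arrays, Pearson's r with Cd74 was 0.96 for H2-Ab1 (Spearman's rho 0.95, exact permutation p = 0.000694 and 0.00114) and 0.95 for H2-Aa (rho 0.95, exact permutation p = 0.000868 and 0.00114). Adjusted over the 12 relations computed with Cd74, these exact permutation p-values were 0.00521 for r and 0.00685 for rho in both genes. For H2-Eb1, r was 0.82 and rho 0.74 (exact permutation p = 0.0146 and 0.0458, or 0.0582 and 0.173 after adjustment). All tests were two-sided, and Cd74 was taken as the reference after its values had been seen.

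The correlation was also computed within genotypes and with fewer arrays. After each group was centred on its own mean, r was 0.95 for H2-Ab1, 0.98 for H2-Aa and 0.78 for H2-Eb1. Without Ctrl replicate 3 and IL6raKO replicate 4, the 2 arrays farthest from the median of Cd74, r was 0.91, 0.89 and 0.74 over the remaining 6. Without Ctrl replicate 4 it was 0.97, 0.95 and 0.81. Among 19937 other genes ranked by r with Cd74, H2-Ab1 was rank 3, H2-Aa rank 5 and H2-Eb1 rank 85, and Med21, Mettl18 and Dcstamp stood at ranks 1, 2 and 4. No batch is named in the labels, so none could be taken into account.

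Over the 8 arrays, r with Cd74 was 0.10 to 0.25 for the 3 regulators, and its difference from the r of the class II chains was not tested. Ciita was at 6.04, 5.98, 5.87 and 6.28 in Ctrl and at 5.95, 6.03, 5.97 and 5.89 in IL6raKO, with Ctrl replicate 4 highest. IL6raKO replicates 3 and 4, the highest arrays for Cd74, were below the Ciita mean over the 8 arrays. Its r with Cd74 was 0.25 (rho 0.19, exact permutation p = 0.587 and 0.665, or 0.705 and 0.886 after adjustment), 0.46 after centring on group means, 0.40 without the 2 farthest arrays and 0.05 without Ctrl replicate 4. The Ciita difference was -0.08 (SE 0.08, 95% confidence interval -0.27 to 0.10), and -0.003 without Ctrl replicate 4. Rfx5, the X box binding factor, was at 6.08, 6.01, 6.14 and 6.05 in Ctrl and at 6.03, 6.18, 6.14 and 6.08 in IL6raKO, a difference of 0.04 (SE 0.06). Its r with Cd74 was 0.10 (rho 0.14) and that of Nlrc5 0.19 (rho 0.19), with exact permutation p for r of 0.805 and 0.649. Centred on group means these r were -0.05 and 0.17, and without the 2 farthest arrays 0.48 and 0.08. The 2 chains of H2-DO had r below 0 (H2-Oa -0.69, H2-Ob -0.34), and H2-DMa, H2-Eb2, H2-Ea and Ifi30 had r of 0.35, 0.48, -0.30 and 0.22, while rho ran from -0.71 for H2-Oa to 0.43 for H2-Eb2. Their exact permutation p-values for r lay between 0.0583 and 0.585, and 0.175 to 0.705 after adjustment. Centred on group means, r was -0.61 for H2-Oa, -0.01 for H2-Ob, 0.65 for H2-DMa, 0.49 for H2-Eb2, -0.44 for H2-Ea and 0.32 for Ifi30. Without the 2 farthest arrays these r were -0.26, -0.12, 0.62, 0.44, -0.56 and 0.62.

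**Figure D3:**
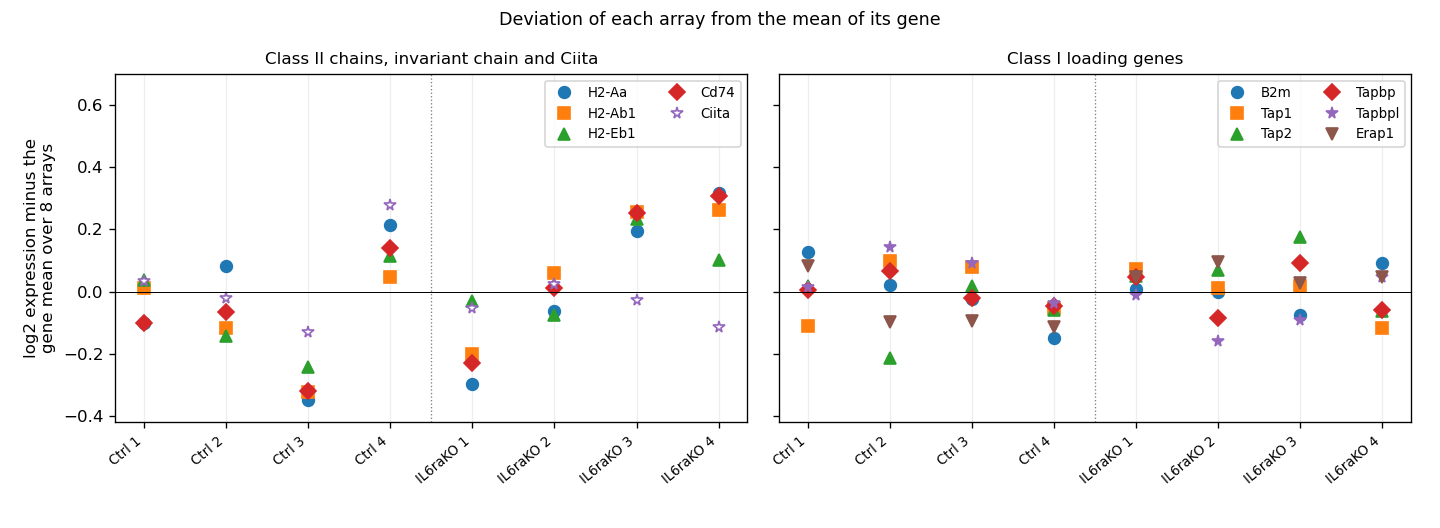
Log2 expression in each array minus the mean of the gene over the 8 arrays, for class II genes with Ciita as open stars (left) and for 6 class I loading genes (right). H2-Aa, H2-Ab1, H2-Eb1 and Cd74 are low together in Ctrl 3 and high together in IL6raKO 3 and 4. In IL6raKO 1, H2-Aa, H2-Ab1 and Cd74 are low (-0.30, -0.20 and -0.23) and H2-Eb1 is near its mean (-0.03). The 6 class I loading genes all lie below their means in Ctrl 4 (-0.15 to -0.04), and in each of the other arrays some are above and some below.

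Replicates of one genotype differed more for H2-Aa, Cd74 and H2-Ab1 than for most genes. The residual SD within groups was 0.26 for H2-Aa, 0.22 for Cd74 and 0.19 for H2-Ab1, at percentiles 97.5, 94.5 and 90.4 of all genes, where the median gene had 0.11. For the 6 class I loading genes its median was 0.09, and their percentiles lay between 14.4 and 42. Ifi30 was at percentile 10.9 and H2-Ob at 5.09. The 20 class I heavy chains ran from percentile 4.4 (H2-M1) to 96.8 (H2-M10.4), with a median of 51.5, so a high spread was not particular to class II. The confidence intervals of H2-Aa, H2-Ab1 and Cd74 are wide in proportion.

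**Figure D4:**
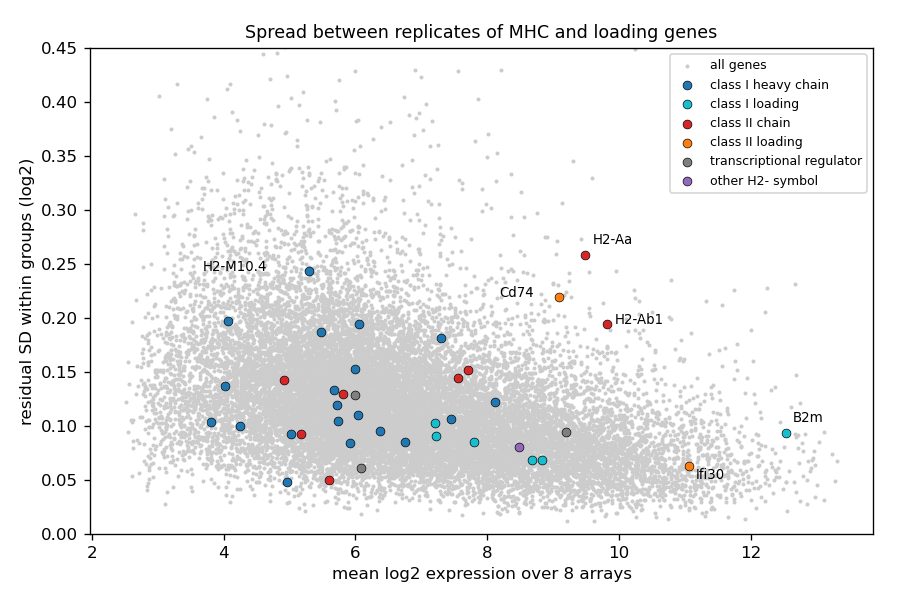
Residual SD within groups against mean log2 expression for all genes (grey, of which 30 above 0.45 are not drawn) and the 40 members (coloured by subgroup). H2-Aa, Cd74 and H2-Ab1 lie above most genes of similar level, and Ifi30 is at percentile 10.9.

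Dendritic cells and B cells carry much class II, so their markers are given beside these values. In whole cultures, fewer cells of a type and less RNA per cell cannot be told apart. For the counts below, 54.2% of all genes were lower in IL6raKO, and 65.4% of the genes at or below the median level. The mean log2 level of 12 dendritic cell markers was 6.30 to 6.45 in Ctrl and 6.26 to 6.36 in IL6raKO, and it was highest in Ctrl replicate 3 (6.45), the array lowest in class II. In this list 7 markers were lower and 5 higher in IL6raKO, and 0 were called. Kmo differed by -0.36, Zbtb46, a transcription factor of classical dendritic cells, by -0.22 (5.78 in Ctrl, 5.56 in IL6raKO) and Siglech by 0.14, with limma adjusted p of 0.573, 0.616 and 0.758. The 9 measured B cell markers had means of 5.81 to 5.89 in Ctrl and 5.72 to 5.81 in IL6raKO. Of these, 8 were lower, 1 higher and 0 called. Cd79a, Ms4a1 and Ighm were lowest in p, at -0.21, -0.18 and -0.17, while 2 dimmer probe sets of Ighm differed by -0.06 and 0.01. Mast cell and basophil markers (11 genes) ranged from 6.04 to 6.50 in Ctrl and from 5.83 to 6.29 in IL6raKO, with Ctrl replicate 4 highest and IL6raKO replicate 1 lowest, and 10 were lower and 1 higher. The lowest p in that list were those of Tpsb2 (-0.12), Hdc (-0.16) and Cpa3 (-0.38). For 9 T and NK cell markers the ranges were 5.25 to 5.38 and 5.21 to 5.33, with 7 lower and 2 higher. Their lowest p were those of Cd3d, Cd3g and Cd8a, at -0.26, 0.22 and -0.17 (limma adjusted p = 0.669 each). Among the macrophage markers the lowest p were those of Fcgr1, Cd14 and Lyz2, at -0.24, 0.16 and -0.11 (limma adjusted p = 0.681, 0.754 and 0.763). The part of these cells in the class II levels was not tested.

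Class I loading genes differed by -0.11 to 0.12, with overlapping groups for all 6. B2m, the light chain of every class I molecule, was at 12.67, 12.56, 12.52 and 12.39 in Ctrl and at 12.55, 12.54, 12.47 and 12.63 in IL6raKO, a difference of 0.01 (SE 0.07, 95% confidence interval -0.14 to 0.17, limma adjusted p = 0.979). The peptide transporter chains were Tap1, at 7.11, 7.32, 7.30 and 7.17 in Ctrl and 7.29, 7.23, 7.24 and 7.11 in IL6raKO, and Tap2, at 7.22, 6.99, 7.22 and 7.15 in Ctrl and 7.26, 7.28, 7.38 and 7.14 in IL6raKO. Their groups overlapped, with differences of -0.01 (SE 0.07) and 0.12 (SE 0.07), the latter 0.07 without Ctrl replicate 2. Tapbp, the tapasin that bridges transporter and heavy chain, was at 8.68, 8.74, 8.66 and 8.63 in Ctrl and at 8.72, 8.59, 8.77 and 8.62 in IL6raKO (difference -0.00, SE 0.06). Tapbpl, a tapasin-related peptide editor, was at 7.82, 7.94, 7.89 and 7.77 in Ctrl and at 7.79, 7.64, 7.71 and 7.85 in IL6raKO (difference -0.11, SE 0.07). For Erap1, the aminopeptidase that trims peptides, Ctrl replicate 1 (8.915) stood above the other Ctrl arrays (8.74, 8.74 and 8.72) and within the IL6raKO values (8.88, 8.93, 8.86 and 8.88). Its difference was 0.11 (SE 0.06, limma adjusted p = 0.725). Without Ctrl replicate 1 it was 0.16, with an unadjusted p of 0.0263 and a limma adjusted p of 0.516, and it was 0.09 to 0.12 with any other array left out. Over the 6 genes the median difference was 0.00, and 3 were lower and 3 higher.

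Nlrc5, the class I transactivator, was read by 19 probe sets. The brightest was at 9.29, 9.06, 9.15 and 9.24 in Ctrl and at 9.13, 9.32, 9.14 and 9.21 in IL6raKO, a difference of 0.01 (SE 0.07). Across the 19 the differences ran from -0.21 to 0.08 with a median of -0.07, 15 were lower and 4 higher, and 1 had an unadjusted p under 0.05 (0.0383). They read 1 gene in the same arrays and are not separate measurements of the genotype.

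The class I heavy chains included the members with the lowest p. H2-Q2, a Qa-region class Ib gene, was at 5.97, 6.12, 5.96 and 6.18 in Ctrl and at 5.81, 5.83, 5.72 and 5.78 in IL6raKO. H2-T10, whose product is a ligand of some gamma-delta T cells, was at 6.42, 6.59, 6.62 and 6.38 in Ctrl and at 6.28, 6.21, 6.32 and 6.19 in IL6raKO. For both genes all 4 IL6raKO arrays lay below all 4 Ctrl arrays. The differences were -0.27 (SE 0.07, 95% confidence interval -0.42 to -0.12, limma adjusted p = 0.528) for H2-Q2 and -0.25 (SE 0.07, 95% confidence interval -0.41 to -0.09, limma adjusted p = 0.566) for H2-T10. A brighter probe set that H2-T10 shares with H2-T9 and H2-T22 differed by 0.04 (SE 0.10), with overlapping groups. H2-M10.2 and H2-M10.4 belong to a family of class Ib genes known from the vomeronasal organ. H2-M10.4 was at 5.49, 5.61, 5.66 and 5.29 in Ctrl and at 4.88, 4.88, 5.52 and 5.002 in IL6raKO, where replicate 3 lay within the Ctrl range. Its difference of -0.44 (SE 0.14, limma adjusted p = 0.573) was the largest in size of all 40 members. H2-M10.2 was at 5.75, 5.88, 5.75 and 5.80 in Ctrl and at 5.64, 5.72, 5.49 and 5.32 in IL6raKO, without overlap (difference -0.25, SE 0.09, limma adjusted p = 0.616). None of these 4 genes passed over all genes.

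These 4 genes were all dimmer than the median gene, and the dim genes of the array as a whole had a median difference below 0. Of the 20 class I heavy chains, 16 were at or below the median level, with a median difference of -0.10 and 75% of them below 0, beside -0.04 and 65.4% for all 9969 genes at or below that level. Among those genes, 6.54% were lower at an unadjusted p under 0.05 and 2.84% had every IL6raKO array below every Ctrl array. The genes above the median level had a median of 0.01, and there the 4 bright heavy chains were at 0.03 to 0.08. With dim genes left out in this way, the class I median was 0.03 in place of -0.04, and the class II median 0.10 in place of 0.04. The 4 class II genes at or below the median level had a median of -0.05. Over the 40 members, 4 had all IL6raKO arrays below all Ctrl arrays and 0 had them above (2.37% and 2.07% of all genes).

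The brighter heavy chains showed no such separation. H2-M3, which presents N-formylated peptides, was at 8.05, 8.12, 7.98 and 8.25 in Ctrl and at 8.15, 8.19, 8.23 and 7.94 in IL6raKO (difference 0.03, SE 0.08). H2-M2 was at 7.55, 7.29, 7.47 and 7.40 in Ctrl and at 7.32, 7.52, 7.54 and 7.48 in IL6raKO (difference 0.03, SE 0.08). H2-T24 was at 7.37, 7.41, 7.36 and 6.90 in Ctrl and at 7.44, 7.31, 7.39 and 7.23 in IL6raKO, with Ctrl replicate 4 below the other 7 arrays (difference 0.08, SE 0.11). Without that array the difference of H2-T24 was -0.04. The remaining 13 heavy chains differed by -0.17 (H2-M10.5) to 0.11 (H2-Q5), each with overlapping groups. H2-Ke6, the member that is no MHC chain, differed by -0.09 (SE 0.07).

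The classical heavy chains H2-K1 and H2-D1 could not be assigned, because their probe sets carry several symbols. There were 8 probe sets of several H2- symbols, 7 of class I and 1 of class II, and 2 more shared between Tapbp and a ribosomal gene. The 8 differed by -0.17 to 0.11, with 6 lower and 2 higher, a lowest limma adjusted p of 0.668 and 0 without overlap. Heavy chains are close relatives in sequence, so cross-hybridisation between paralogues cannot be told apart from expression of the named gene, also for probe sets with 1 symbol.

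Other genes of the antigen presentation pathways, from fixed lists, were not called either. Of 12 measured genes of peptide production and heavy chain folding, 0 were called (median -0.04, 7 lower, 5 higher). Sec61b, a translocon subunit, differed by -0.10, the immunoproteasome subunit Psmb8 by -0.10 and the peptidase Tpp2 by 0.07, with limma adjusted p between 0.791 and 0.819. Of 10 measured genes listed with the class II pathway, some of them surface receptors such as Fcer2a, 0 were called (median -0.07, 8 lower, 2 higher). At an unadjusted limma p under 0.05, 2 were lower, Marchf1 and Fcer2a (4.54% of all genes were). Marchf1, the membrane ubiquitin ligase that removes class II from the surface, was at 7.69, 7.88, 7.78 and 8.05 in Ctrl and at 7.54, 7.68, 7.65 and 7.64 in IL6raKO. Every IL6raKO array lay below every Ctrl array, and the difference was -0.22 (SE 0.08, 95% confidence interval -0.40 to -0.05, limma adjusted p = 0.641). Fcer2a, the low-affinity IgE receptor, differed by -0.33 at a dim level, and Ap3b1, an adaptor of lysosomal sorting, by -0.08, also without overlap.

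Among 11 measured factors of the X and Y boxes and of the interferon response 0 were called (median -0.01, 7 lower, 4 higher). Irf1, an inducer of class I and Ciita transcription, was at 8.10, 8.17, 8.21 and 8.26 in Ctrl and at 8.01, 8.10, 7.83 and 7.91 in IL6raKO, a difference of -0.22 (SE 0.07, limma adjusted p = 0.616), while a dimmer second probe set of Irf1 differed by -0.00. Nfyb, a subunit of the Y box factor, differed by 0.13 and Irf2 by -0.07. Of 7 measured class I-like genes outside the H2 names 0 were called. Hfe, which binds the transferrin receptor, was at 8.59, 8.67, 8.57 and 8.71 in Ctrl and at 8.39, 8.20, 8.49 and 8.49 in IL6raKO, without overlap (difference -0.24, SE 0.08, limma adjusted p = 0.605). Raet1d, a ligand of the NKG2D receptor, differed by 0.14 and Azgp1 by -0.15.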

How the data were processed

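Per the labels' protocols, total RNA of 8 cultures was turned into biotin-labelled sense-strand cDNA with an Affymetrix whole-transcript assay. The authors deposited log2 values of 35556 probe sets. The submitters' processing notes name RMA and R 2.13.1, while the build is not stated, and the log2 scale was read from the range of 1.96 to 14.2. RMA compresses differences of dim probe sets. GEO's platform annotation gave 21789 probe sets 1 symbol, 1621 several and 12146 none. For each gene the probe set of highest mean was used.

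Groups were compared with limma 3.58.1 (lmFit, eBayes) in R 4.3.3, in 1 fit over all genes without covariates, after tests on simulated data. Members and lists were chosen with earlier results of these data known. Named were, per subgroup, the 3 genes of highest mean and the 3 of lowest p, all class II loading genes and regulators, and up to 3 genes of lowest p per list; others were chosen after their values were seen. Same-numbered replicates did not deviate together (correlations -0.01 to 0.04). Alternatives were a trended and robust variance, a replicate block, 2 filters, 2 normalizations, 2 uses of probe sets, array weights and each array left out.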

Additional observations from a re-analysis of the deposited data

Results flagged for a closer look

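In 5 of the 80 sets of 4 values, 1 per member and genotype, 1 array stood clear of the remaining 3, beside about 4 sets by chance. H2-T24 was at 6.90 in Ctrl replicate 4 and at 7.36 to 7.41 in the other Ctrl arrays. Erap1 was at 8.915 in Ctrl replicate 1 and at 8.72 to 8.74 in the others. H2-Ea was at 5.11 in Ctrl replicate 2 and at 4.78 to 4.82 in the others. H2-M10.6 was at 3.95 in Ctrl replicate 1 and at 4.17 to 4.21 in the others. H2-Bl was at 5.80 in IL6raKO replicate 3 and at 5.64 to 5.66 in the others.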

How the results depend on the processing

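In limma, 0 members were called under each of the 17 alternatives run, with a lowest adjusted p of 0.168, while the calls over all genes ranged from 0 to 22. At an unadjusted p under 0.05, H2-Q2, H2-T10, H2-M10.2 and H2-M10.4 stayed lower under every alternative that tested them; among genes above the median level, which leaves all 4 out, 0 members were lower. With 1 array left out, 4 to 6 members were lower and 0 to 2 higher. The class I median was 0.0317 among genes above the median level, -0.0025 above the 25th percentile and -0.0644 when centred on the 75th percentile, a step that moved the median of all genes from -0.01 to -0.04. The class II median was 0.0961 among genes above the median level and lay between -0.01 and 0.07 with 1 array left out. The replicate block changed no call of a member, and in this balanced design it could not move the medians of -0.04 and 0.04. It, the variance model, the 2 filters and the test of all probe sets leave each member's difference as it was. A sign could therefore change only under the other alternatives, and under the mean of probe sets only for Nlrc5. Of 40 members, 25 kept their sign under every alternative that tested them, which settles no direction, as the alternatives reuse the same 8 arrays. The other 15 changed sign under 1 or more and have no settled direction either: H2-Aa, H2-Bl, H2-Eb2, H2-M1, H2-M10.3, H2-M11, H2-M2, H2-M3, H2-M5, H2-T24, B2m, Nlrc5, Tap1, Tapbp and Ifi30. B2m and Nlrc5 did so under 5 alternatives each, normalizations included. The number of arrays and the compression of dim probe sets limit what could be seen.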
